A study of Mus musculus with 24 samples.

Results

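Collagens are the trimeric proteins that make up most of the fibrous extracellular matrix, and 42 collagen genes were described here in mouse liver. Members were all protein-coding genes whose symbol reads Col, a number, a and a number, and they were 42 of 20665 protein-coding genes in the tables. For each gene the assembled transcript (a row of the tables) with the highest mean level over 4 groups of livers stood for the gene. Each collagen chain carries repeats of glycine and a pair of further residues, often proline and hydroxyproline, and 3 chains wind into a triple helix that is hydroxylated, secreted, trimmed and cross-linked. Fibrillar collagens such as types I, III and V form fibrils, FACIT collagens bind to the surface of fibrils, type IV forms the network of basement membranes, type VI forms beaded filaments, and the multiplexins Col15a1 and Col18a1 sit at basement membranes. In liver, collagen is made mainly by stellate cells and portal fibroblasts, while hepatocytes and sinusoidal endothelial cells are known to make some non-fibrillar chains.

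Livers came from wild-type C57BL/6 mice (C57BL/6N in the study's methods) labelled as 18 weeks old, which had received locked nucleic acid (LNA) oligonucleotides for 12 weeks by the labels. The study's methods state older mice and more weeks of LNA than the labels, and add that the mice were male and were injected intravenously every other week. By the same methods, mice given LNA were assigned at random to an intravenous dose of saline or insulin before tissues were taken. Which of the sequenced livers had insulin is not stated in the methods. The groups used were Mafg LNA HFD, Scr LNA HFD, LincIRS2 LNA NCD and Scr LNA NCD, with 4 livers each. HFD is a high-fat diet with 54 kJ% fat, 22 kJ% carbohydrate and 24 kJ% protein, and NCD is the control diet with 11 kJ% fat, 62 kJ% carbohydrate and 27 kJ% protein. Scr LNA is a control oligonucleotide, Mafg LNA targets the mRNA of the small MAF transcription factor MAFG, and LincIRS2 LNA targets the long non-coding RNA LincIRS2 (4833411C07Rik). All groups, controls included, carried an LNA, and an injected LNA reaches organs and cell types other than hepatocytes.

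The oligonucleotides define the groups and are shown for that reason, 5′ to 3′, in capitals throughout because the whole sequence acts.
Scr LNA: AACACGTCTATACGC
Mafg LNA: GTCTTGGACTTTACTA
LincIRS2 LNA: CTCGATTAACCTGATA
The complement of Mafg LNA lies in GRCm38 at chr11:120629300-120629315, in the last exon of Mafg (minus strand) and inside the coding sequence. The complement of LincIRS2 LNA lies at chr8:10900491-10900506 in exon 2 of 4833411C07Rik (plus strand), which has no coding part. Among the annotated transcripts of the 42 collagen genes, the longest run complementary to Mafg LNA was 11 of its 16 bases, in Col27a1, and the longest run for LincIRS2 LNA was 9 of 16 bases, in Col11a2 and Col8a2. Scr LNA matched at most 9 of its 15 bases, in Col12a1 and Col5a2. In Col1a2 these runs were 8 bases for Mafg LNA, 8 bases for LincIRS2 LNA and 6 bases for Scr LNA. No annotated collagen transcript held a full complement of any of the 3 oligonucleotides. Introns and complements with mismatches were not searched, and direct action of the oligonucleotides on collagen RNA was not tested.

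Each group had 1 value per row, as fragment counts divided by transcript length and by library size (FPKM), which the authors pooled over its 4 livers. There was no value per liver, so no spread, no test and no p-value could be given, the depth is unknown, and every ratio below is a description of pooled values. Ratios were taken as log2 of (FPKM + 0.1) over (FPKM + 0.1), which understates differences of low genes, and a gene was past the fold at 1.5 or more either way. In 4833411C07Rik, the targeted RNA, the listed level was 0.345 FPKM in LincIRS2 LNA NCD livers and 0.558 FPKM in Scr LNA NCD livers, and Mafg was not analysed here. The 10 highest rows took between 87.7% and 92.5% of all FPKM in a group. Alb, the main secretory product of hepatocytes, was listed at 0 in Mafg LNA HFD, Scr LNA HFD and Scr LNA NCD livers and at 2663 FPKM in LincIRS2 LNA NCD livers, so a 0 in these tables can be a failed estimate.

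Of the 42 collagen genes, 17 passed a filter on low values, a mean of at least 0.1 FPKM over the 4 groups, and 25 did not. Col7a1, Col6a2 and Col6a6 passed only through their highest group, since their means over the other 3 groups were under 0.1 FPKM. Col7a1 passed through Scr LNA HFD and Col6a2 through Scr LNA NCD, so each had to differ in the comparisons that use that group, and counts are also given over the 14 genes that passed without their highest group. Col6a6 was just inside the filter with a mean of 0.101 FPKM and Col4a2 just outside with 0.0909 FPKM. The levels fell into a steep order led by Col27a1, with a mean of 16.6 FPKM, followed by Col14a1 with 4.47 FPKM, Col1a2 with 3.47 FPKM, Col5a3 with 2.24 FPKM, Col6a1 with 1.73 FPKM and Col16a1 with 1.51 FPKM. Col18a1, Col5a1, Col15a1 and Col10a1 followed between 0.999 and 0.691 FPKM. No spread was available to say which neighbours in this order differ. By chain class, 6 of 11 fibrillar genes, 3 of 8 FACIT genes, 3 of 6 beaded filament genes, both multiplexins, 2 of 3 short chain genes and the anchoring fibril gene Col7a1 passed, while 0 of 5 basement membrane network genes and 0 of 4 transmembrane genes did.

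**Figure D1:**
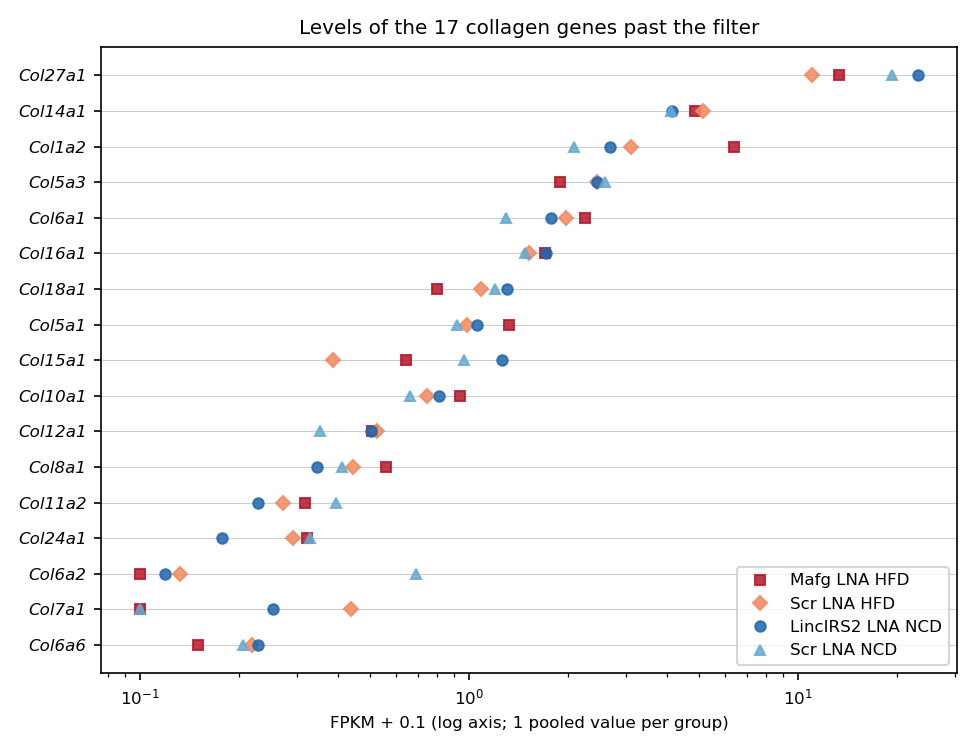
Levels of the 17 collagen genes past the filter, 1 line per gene in order of mean level, with FPKM + 0.1 on a log axis and 1 pooled value per group as a point. Col27a1 stands at the top between 10.9 and 23.1 FPKM, and the order of the groups differs from gene to gene.

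Genes below the filter included chains that livers are known to hold in quantity. Col1a1, whose chain joins that of Col1a2 in the type I trimer, was listed at 0.0206 FPKM in Mafg LNA HFD, 0.0400 FPKM in Scr LNA HFD, and 0 in both NCD groups. Col3a1, the chain of the homotrimeric type III collagen, and Col5a2, a chain of type V, were listed at 0 in every group. Col4a1, which pairs with Col4a2 in the most widespread form of type IV, was also listed at 0 in every group, while Col4a2 was listed at 0.0613 FPKM in Mafg LNA HFD, 0.0704 FPKM in Scr LNA HFD, 0.103 FPKM in LincIRS2 LNA NCD and 0.129 FPKM in Scr LNA NCD. Col6a3, the large chain of type VI, had a mean of 0.0237 FPKM. These values cannot be taken to measure the genes as a whole, since only part of the numbered assembled transcripts was listed. Transcript numbers ran to 219420 for 69905 rows. After the Col3a1 row 41 numbers were skipped, 30 after Col1a1, 30 after Col5a2, 12 after Col4a1 and 12 after Col4a2. Chain ratios such as Col1a1 to Col1a2 were not formed for this reason.

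The row that stood for a collagen gene was also often not on the gene's strand. The strand of a row was inferred from the order of rows along each chromosome, and for rows at 0 in every group the inferred strand matched the gene's in 25024 of 25027. Among the 17 collagen genes past the filter, 13 (76.5%) had their highest row on the opposite strand, against 64.6% of 9228 protein-coding genes past the filter. None of these 13 rows was followed by a skipped transcript number. Those on their own strand were Col10a1, Col18a1, Col6a2 and Col6a6. The authors' library was strand-specific, but the strand setting of the counting was not given in the sources used here, so reads of a gene and of an antisense transcript cannot be told apart in these rows.

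Col14a1 and Col5a1 had a row past 0.5 FPKM on each strand, and the pairs of rows differed. For Col14a1, a FACIT collagen of fibroblasts, the opposite-strand row read 4.76 FPKM in Mafg LNA HFD, 5.04 FPKM in Scr LNA HFD, 4.05 FPKM in LincIRS2 LNA NCD and 4.01 FPKM in Scr LNA NCD. Its own-strand row, followed by 14 skipped numbers, read 0.0421 FPKM in Mafg LNA HFD, 1.37 FPKM in Scr LNA HFD, 0.201 FPKM in LincIRS2 LNA NCD and 0.518 FPKM in Scr LNA NCD. The first row was nearly level across groups, with a Mafg LNA log2 ratio of -0.08, whereas that of the second was -3.37. For Col5a1, a chain of the type V collagen that starts fibrils, the opposite-strand row read 1.22 FPKM in Mafg LNA HFD and 0.886 FPKM in Scr LNA HFD, while the own-strand row read 0.590 FPKM in Mafg LNA HFD and 0.824 FPKM in Scr LNA HFD. These rows pointed in opposite directions under Mafg LNA, with log2 ratios of 0.42 and -0.42.

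**Figure D2:**
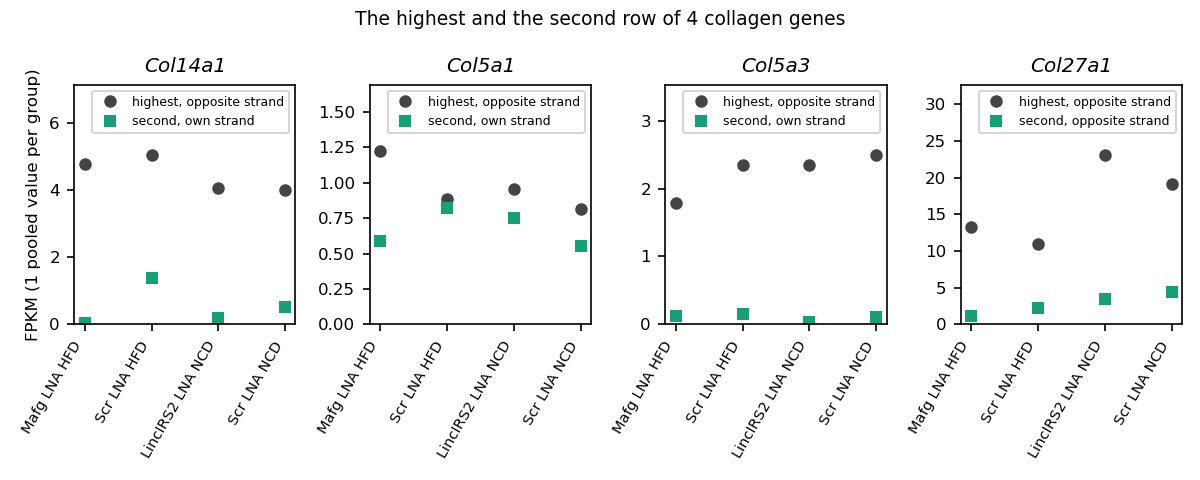
FPKM of the highest row (circles) and the second row (squares) of Col14a1, Col5a1, Col5a3 and Col27a1, with 1 pooled value per group. The own-strand row of Col14a1 lies at 1.37 FPKM in Scr LNA HFD and 0.0421 FPKM in Mafg LNA HFD, while its opposite-strand row stays between 4.01 and 5.04 FPKM.

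The first comparison asked how the diet bears on collagen genes under Scr LNA. Col6a1 was higher in HFD livers past the fold, Col15a1, Col27a1 and Col6a2 were lower, and Col7a1 was listed at 0 in NCD livers. The count was 2 of 17 higher (11.8%), where 6.89% of 9228 protein-coding genes were, and 3 of 17 lower (17.6%), where 7.24% were. Over the 14 genes that passed without their highest group, 1 was higher, where 6.43% of 8917 genes were, and 2 were lower, where 6.59% were. The median log2 ratio of the 17 genes was 0.08 and that of all genes 0.01, and 10 collagen ratios were above 0 and 7 below. Among the 10 genes with a mean of at least 0.5 FPKM, 1 was higher, where 5.51% of 6768 genes at that level were, and 2 were lower, where 4.43% were.

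Col15a1, a multiplexin of vascular basement membranes, had 0.286 FPKM in Scr LNA HFD livers and 0.869 FPKM in Scr LNA NCD livers, a log2 ratio of -1.33. Its level in Mafg LNA HFD livers was 0.543 FPKM and in LincIRS2 LNA NCD livers 1.16 FPKM, so both HFD groups lay below both NCD groups. Col18a1, the other multiplexin and the source of endostatin, read 0.987 FPKM in Scr LNA HFD and 1.10 FPKM in Scr LNA NCD, a log2 ratio of -0.14.

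Col27a1, a fibrillar collagen best known from cartilage, had 10.9 FPKM in Scr LNA HFD livers and 19.2 FPKM in Scr LNA NCD livers, a log2 ratio of -0.81. Here too both HFD groups lay below both NCD groups, with 13.2 FPKM in Mafg LNA HFD and 23.1 FPKM in LincIRS2 LNA NCD. A second row of Col27a1, also on the opposite strand, read 1.14 FPKM in Mafg LNA HFD, 2.21 FPKM in Scr LNA HFD, 3.52 FPKM in LincIRS2 LNA NCD and 4.34 FPKM in Scr LNA NCD. Its log2 ratios were -0.94 with HFD, -0.90 with Mafg LNA and -0.29 with LincIRS2 LNA, so it had the sign of the highest row with diet alone. The own-strand row of Col27a1 had a mean of 0.0180 FPKM. The deposited locus of the highest row, chr4:63214004-63365878, reaches past the gene (chr4:63214004-63334991, plus strand) over Orm1, Orm3 and Orm2, which encode acute phase orosomucoids. Orm2 read 24.6 FPKM in Mafg LNA HFD, 8.18 FPKM in Scr LNA HFD, 29.0 FPKM in LincIRS2 LNA NCD and 14.5 FPKM in Scr LNA NCD. Orm2 differed in the same direction as the highest Col27a1 row in all 3 comparisons. Orm3 did not, with 0.425 FPKM in Mafg LNA HFD, 0.905 FPKM in Scr LNA HFD, 0.546 FPKM in LincIRS2 LNA NCD and 0.545 FPKM in Scr LNA NCD. Orm1 read 0.419 FPKM in Mafg LNA HFD, 0.502 FPKM in Scr LNA HFD, 0.997 FPKM in LincIRS2 LNA NCD and 0.572 FPKM in Scr LNA NCD. The part of these genes in the Col27a1 value was not tested.

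Col6a1, a chain of the beaded filaments of type VI collagen, had 1.88 FPKM in Scr LNA HFD livers and 1.20 FPKM in Scr LNA NCD livers, a log2 ratio of 0.61 that is barely past the fold and falls inside it (0.48) with a pseudocount of 0.5 FPKM. Col6a2, which joins it in the same trimer, was listed at 0.0327 FPKM in Scr LNA HFD and 0.593 FPKM in Scr LNA NCD, and at 0.0194 FPKM in LincIRS2 LNA NCD and 0.000144 FPKM in Mafg LNA HFD. The Scr LNA NCD value alone carried Col6a2 over the filter. The Col6a2 row lies in a deposited locus that also covers Ftcd, an enzyme of histidine breakdown in hepatocytes, at 66.0 FPKM in Scr LNA HFD and 60.8 FPKM in Scr LNA NCD, and 24 transcript numbers were skipped after it. Col7a1, which forms the anchoring fibrils under epithelia, was listed at 0.338 FPKM in Scr LNA HFD and at 0 in Scr LNA NCD, so no fold is given.

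Col1a2 stood just under the fold, with 3.01 FPKM in Scr LNA HFD livers and 1.99 FPKM in Scr LNA NCD livers and a log2 ratio of 0.58, which passed it (0.60) with a pseudocount of 0.01 FPKM. Col12a1, a FACIT collagen of stretched tissue, stood there as well, with 0.424 FPKM in Scr LNA HFD and 0.253 FPKM in Scr LNA NCD and a log2 ratio of 0.57. Col14a1 (0.32), Col10a1 (0.17), Col5a1 (0.10), Col8a1 (0.10), Col16a1 (0.04) and Col5a3 (-0.08) had log2 ratios well inside the fold.

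**Figure D3:**
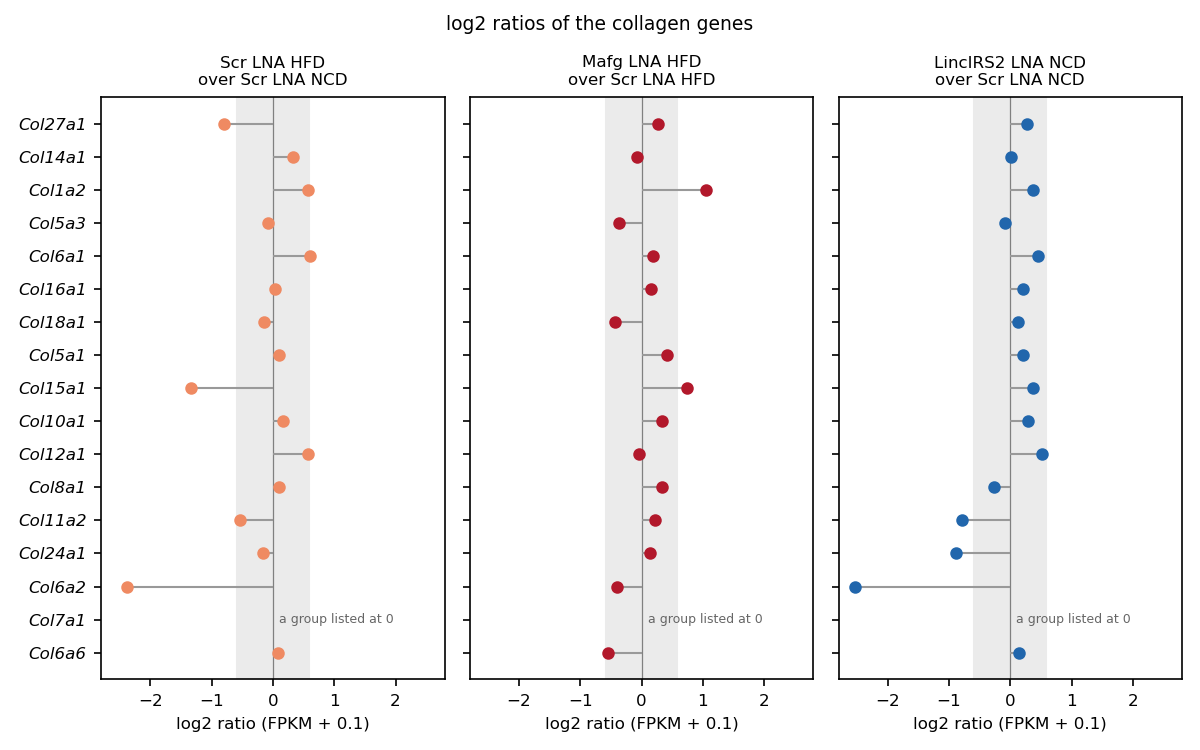
log2 ratios of FPKM + 0.1 for the 17 collagen genes in the 3 comparisons, with the shaded band marking ratios inside 1.5-fold. Col7a1 has no point where a group was listed at 0. Col15a1 lies at -1.33 with HFD and at 0.74 with Mafg LNA, and Col1a2 at 1.04 with Mafg LNA.

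The second comparison set Mafg LNA against Scr LNA under HFD. Col1a2 and Col15a1 were higher past the fold and Col7a1 was listed at 0 in Mafg LNA HFD livers. The count was 2 of 17 higher (11.8%), close to the 10.7% of all protein-coding genes, and 1 of 17 lower (5.88%), where 8.22% were. The 1 lower gene was Col7a1, whose 0 can be a failed estimate. Over the 14 genes that passed without their highest group 2 were higher, where 9.77% of 8917 genes were, and 0 lower, where 7.82% were. The median log2 ratio was 0.16 for the collagen genes and -0.04 for all genes, but -0.42 over the 7 genes with an own-strand row past the filter and 0 over 37 genes without a filter. This comparison and the diet comparison share the Scr LNA HFD group, so a high or low value in that group enters both with opposite sign.

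Col1a2 had 6.30 FPKM in Mafg LNA HFD livers and 3.01 FPKM in Scr LNA HFD livers, a log2 ratio of 1.04 and a fold of 2.06. Mafg LNA HFD was the highest of the 4 groups for this gene, above Scr LNA HFD, LincIRS2 LNA NCD (2.58 FPKM) and Scr LNA NCD (1.99 FPKM). The own-strand row of Col1a2 was at 0 in every group with 46 transcript numbers skipped after it, so this ratio rests on the opposite-strand row alone. Col15a1 had 0.543 FPKM in Mafg LNA HFD livers and 0.286 FPKM in Scr LNA HFD livers, a log2 ratio of 0.74 that falls inside the fold (0.41) with a pseudocount of 0.5 FPKM. Its level in Mafg LNA HFD livers was still below both NCD groups.

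In the rows that stood for the genes, the other fibrillar chains had ratios of both signs, all inside the fold. A second row of Col27a1 (-0.90) and a further row of Col11a2 (1.27) were past it, in opposite directions. Col5a1 had a log2 ratio of 0.42 and Col5a3, a further type V chain, one of -0.38, with 1.79 FPKM in Mafg LNA HFD and 2.35 FPKM in Scr LNA HFD. Col27a1 (0.27), Col11a2 (0.22) and Col24a1 (0.14) lay inside the fold. Outside the fibrillar class, Col18a1 read 0.702 FPKM in Mafg LNA HFD and 0.987 FPKM in Scr LNA HFD, a log2 ratio of -0.44, and Col6a6, a type VI chain related to Col6a3, had a ratio of -0.54. Col8a1 (0.34) and Col10a1 (0.33), short chain network collagens, Col6a1 (0.19), Col16a1 (0.16), Col12a1 (-0.05) and Col14a1 (-0.08) lay closer to 0. Col10a1 lies inside Nt5dc1 on the other strand, and its row read 0.839 FPKM in Mafg LNA HFD and 0.647 FPKM in Scr LNA HFD. The deposited locus of this row was as wide as Nt5dc1, so transcription of the host gene cannot be told apart from Col10a1. Nt5dc1 itself read 0.139 FPKM in Mafg LNA HFD and 0.457 FPKM in Scr LNA HFD. Gm47508 and Gm47512 share the locus, with 0.912 and 0.393 FPKM in Mafg LNA HFD and 0.640 and 0.281 FPKM in Scr LNA HFD. The part of these genes in the Col10a1 value was not tested.

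The third comparison set LincIRS2 LNA against Scr LNA under NCD. The 10 collagen genes of at least 0.5 FPKM all stayed inside the fold, and their log2 ratios ran from -0.09 for Col5a3 to 0.45 for Col6a1, which had 1.68 FPKM in LincIRS2 LNA NCD livers and 1.20 FPKM in Scr LNA NCD livers. Over the 17 genes, 1 was higher (5.88%), where 4.45% of all protein-coding genes were, and 3 were lower (17.6%), where 6.26% were. The 1 higher gene was Col7a1, listed at 0 in Scr LNA NCD, and over the 14 genes that passed without their highest group 0 were higher, where 3.91% were, and 2 were lower, where 5.69% were. The median log2 ratio was 0.20 for the collagen genes and 0.00 for all genes, and 12 ratios were above 0 and 5 below. All the genes past the fold had means below 0.5 FPKM. Col24a1, a minor fibrillar chain, read 0.0778 FPKM in LincIRS2 LNA NCD and 0.229 FPKM in Scr LNA NCD, a log2 ratio of -0.89. Col11a2, a chain of the cartilage collagen type XI, read 0.129 FPKM in LincIRS2 LNA NCD and 0.295 FPKM in Scr LNA NCD, a log2 ratio of -0.79. Col6a2 was lower as well, with its only level above 0.1 FPKM in Scr LNA NCD, and Col7a1 was listed at 0.154 FPKM in LincIRS2 LNA NCD and at 0 in Scr LNA NCD. This comparison shares the Scr LNA NCD group with the diet comparison.

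Of the genes named so far, Col27a1 (0.27), Col1a2 (0.36), Col15a1 (0.38) and Col12a1 (0.52) also had log2 ratios above 0 with LincIRS2 LNA. Col5a1 (0.20), Col16a1 (0.21), Col10a1 (0.29), Col18a1 (0.12) and Col14a1 (0.01) did as well, while Col8a1 (-0.26) lay below 0.

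**Figure D4:**
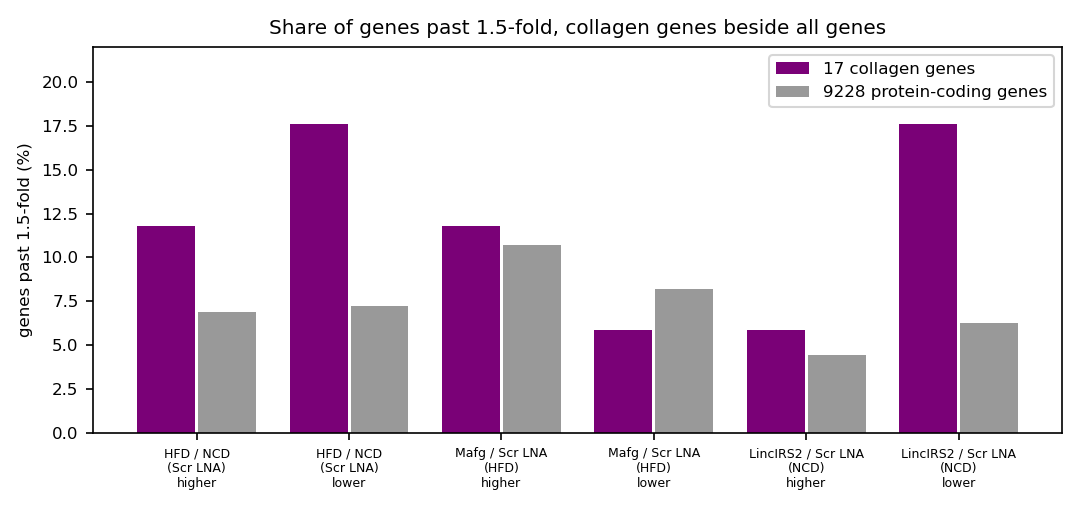
Share of genes past 1.5-fold in each comparison and direction, for 17 collagen genes and 9228 protein-coding genes past the same filter. With 17 genes, 1 gene makes 5.88%, and the collagen bars stand for 1 to 3 genes each.

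The enzymes that build collagen are given by their counts beside the shares of all genes stated above. Of 20 genes of collagen folding, hydroxylation and secretion 14 passed the filter, and only P3h4, a partner of the prolyl 3-hydroxylases, was past the fold in any comparison, with 0.362 FPKM in Scr LNA HFD and 0.179 FPKM in Scr LNA NCD (log2 ratio 0.73). In this list 1 of 14 was higher and 0 lower with HFD, and 0 were past the fold with Mafg LNA (median -0.10) or LincIRS2 LNA (median -0.06). Serpinh1, the collagen chaperone, chosen after its values were seen, had log2 ratios of 0.31 with HFD, -0.06 with Mafg LNA and -0.20 with LincIRS2 LNA. Of 13 genes of propeptide cleavage and cross-linking, 6 passed the filter and 0 were past the fold in any comparison, with medians of 0.12 with HFD, -0.11 with Mafg LNA and 0.04 with LincIRS2 LNA. In lists of 14 and 6 genes, the shares of all genes past the fold (between 4.45% and 10.7% in a direction) amount to fewer than 2 genes, so these counts are near the background.

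Several genes of collagen degradation were higher with Mafg LNA. Of 14 listed genes, 7 passed the filter and 4 were higher past the fold in Mafg LNA HFD livers, where 10.7% of all genes were, and 0 were lower. Mmp12 passed the filter only through Mafg LNA HFD, and without such genes 3 of 6 were higher. Mmp13, the main interstitial collagenase of rodents, had 1.21 FPKM in Mafg LNA HFD and 0.127 FPKM in Scr LNA HFD (log2 ratio 2.53). Mmp12, the macrophage elastase, had 0.745 FPKM in Mafg LNA HFD and 0.103 FPKM in Scr LNA HFD (2.06). The neutrophil collagenase Mmp8 had 0.232 FPKM in Mafg LNA HFD and 0.0519 FPKM in Scr LNA HFD (1.13), and the gelatinase Mmp9 had 0.267 FPKM in Mafg LNA HFD and 0.0957 FPKM in Scr LNA HFD (0.91). With HFD, Mmp19 (0.69) and Mmp12 (0.59) were higher and Mmp9 (-1.22) and Mmp8 (-1.18) lower past the fold. Of all genes, 6.89% were higher and 7.24% lower with HFD. With LincIRS2 LNA Mmp8 (-1.24) and Mmp9 (-0.97) were lower, where 6.26% of all genes were. All these Mmp rows but that of Mmp19 lay on the opposite strand. The inhibitors Timp2 and Timp3 stayed inside the fold in all 3 comparisons, while Timp1 and Timp4 were below the filter. Timp1 was listed at 0.142 FPKM in Mafg LNA HFD, 0.0456 FPKM in Scr LNA HFD and 0 in both NCD groups. Timp4 was listed at 0.00160 FPKM in Mafg LNA HFD and 0.00776 FPKM in Scr LNA HFD.

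Of the collagen receptors 4 of 9 listed genes passed, and Lair1, an inhibitory receptor of leukocytes, was the 1 gene past the fold, higher with Mafg LNA (0.95) and lower with LincIRS2 LNA (-0.73). Of 16 genes of TGF-beta and PDGF signalling, 14 passed. With HFD 0 were higher and 1 was lower, Pdgfb (-0.77), a mitogen of stellate cells. With Mafg LNA, 1 was higher, Pdgfb (0.64), and 2 were lower, the TGF-beta antagonist Smad7 (-1.55) and the ligand Tgfb2 (-0.73). With LincIRS2 LNA, Ltbp1 (1.06), which binds latent TGF-beta, was higher and Tgfb2 (-0.91), Smad7 (-0.63) and Pdgfb (-0.59) were lower. The medians of this list were -0.22 with HFD, -0.12 with Mafg LNA and -0.14 with LincIRS2 LNA. The counts of receptor and signalling genes are to be read beside the shares of all protein-coding genes. These shares were 6.89% higher and 7.24% lower with HFD, 10.7% and 8.22% with Mafg LNA, and 4.45% and 6.26% with LincIRS2 LNA.

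Of 22 other matrix proteins 15 passed the filter. Of all protein-coding genes, 10.7% were higher and 8.22% lower past the fold with Mafg LNA, and 4.45% and 6.26% with LincIRS2 LNA. With HFD these shares were 6.89% and 7.24%. With Mafg LNA, 2 of the 15 were higher past the fold, tenascin Tnc (0.87) and Efemp1 (0.84). Lower past the fold were 2, the proteoglycan Lum (-1.33) and elastin Eln (-1.03). Lum had 2.16 FPKM in Mafg LNA HFD livers and 5.60 FPKM in Scr LNA HFD livers. Tnc was also higher with LincIRS2 LNA (0.86), and 0 of the 15 were past the fold with HFD (median 0.24). Lum and Col1a2, a pair chosen after the values were seen, had Mafg LNA ratios of opposite sign, both from opposite-strand rows. The median Mafg LNA log2 ratio of the 15 genes was -0.18.

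Marker genes of the liver's cell types are given beside these results, since in whole liver fewer cells of a type and less RNA per cell cannot be told apart. Their counts are to be read beside the shares of all genes past the fold. These were 10.7% higher and 8.22% lower with Mafg LNA, 4.45% and 6.26% with LincIRS2 LNA, and 6.89% and 7.24% with HFD. Of 12 stellate cell markers 6 passed the filter and 0 were past the fold in any comparison. Their summed level was 35.6 FPKM in Mafg LNA HFD against 43.4 FPKM in Scr LNA HFD, 43.4 FPKM in Scr LNA HFD against 39.6 FPKM in Scr LNA NCD, and 40.3 FPKM in LincIRS2 LNA NCD against 39.6 FPKM in Scr LNA NCD. The stellate markers Reln and Ecm1 were listed at or near 0 in every group. Of 8 activated myofibroblast markers 6 passed. With Mafg LNA Spp1 (0.73), which is also on the cholangiocyte list, and Tnc (0.87) were higher past the fold. Inside the fold, Acta2 (0.47) and Tagln (0.58) lay above 0 and Postn (-0.33) and Lox (-0.12) below 0. Cthrc1 was at or near 0. With LincIRS2 LNA 1 of the 6, Tnc, was past the fold, and with HFD 0 were. Of the portal fibroblast and smooth muscle markers 2 of 8 passed the filter, and Eln was lower with Mafg LNA (-1.03) and Entpd2 higher with LincIRS2 LNA (0.59) past the fold.

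Markers of leukocytes and other cells follow, to be read beside the 6.89% higher and 7.24% lower of all genes with HFD, 10.7% and 8.22% with Mafg LNA, and 4.45% and 6.26% with LincIRS2 LNA. Of 12 Kupffer cell and macrophage markers 11 passed, with 7 higher and 0 lower with Mafg LNA (summed level 47.9 FPKM in Mafg LNA HFD and 33.3 FPKM in Scr LNA HFD), 7 lower and 0 higher with HFD (33.3 FPKM in Scr LNA HFD and 54.5 FPKM in Scr LNA NCD) and 9 lower and 0 higher with LincIRS2 LNA (30.1 FPKM in LincIRS2 LNA NCD and 54.5 FPKM in Scr LNA NCD). Of 12 sinusoidal endothelial markers 10 passed, and 3 of them, Ehd3 (-0.75), Kdr (-0.73) and Fcgr2b (-0.65), were lower with Mafg LNA, while 0 were past the fold with HFD or LincIRS2 LNA. All 5 mesothelial markers passed, with 3 higher with HFD, 3 lower with Mafg LNA and 1 each way with LincIRS2 LNA, at summed levels of 0.572 FPKM in Mafg LNA HFD, 1.48 FPKM in Scr LNA HFD, 0.829 FPKM in LincIRS2 LNA NCD and 0.699 FPKM in Scr LNA NCD. Cholangiocyte markers passed in 5 of 7 and hepatocyte markers in 10 of 12, with 1 higher and 1 lower with Mafg LNA in each of these lists, near the background. With HFD 4 hepatocyte markers were lower, and with LincIRS2 LNA 2 hepatocyte markers were higher, of which 1 was Alb with its listed zeros, and 1 cholangiocyte marker was lower. The part of any of these cell types in the collagen values was not tested.

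Collagen genes share a gene structure that the choice of members did not use. In the longest coding transcript of each of the 42 genes in GENCODE M21, 62.7% of 1923 coding exons had a length divisible by 9 bases, the length that encodes 1 triplet of glycine and its partners, against 14.0% of 197327 coding exons of other protein-coding genes. Exons of exactly 54 bases made up 24.1% of the collagen exons and 0.447% of the others. The chains that led the levels differed in this respect: Col1a2 had 46 of 52 coding exons divisible by 9, 24 of them exactly 54 bases long, and Col27a1 had 53 of 61, with 33 of 54 bases. Col14a1, with 13 of 47, and Col15a1, with 11 of 40, had far fewer, and the short chain genes Col10a1 and Col8a1 had 0 of 2.

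The promoters of the 4 genes of at least 0.5 FPKM that were past the fold in some comparison are printed, as the 250 bases before the RefSeq start (GRCm38.p6), 5′ to 3′ on the gene's strand. Capitals mark the CCAAT box (CCAAT), the GC box bound by SP1 (GGGCGG) and the core of the element bound by small MAF proteins (TGCTGA), each searched on both strands.
Col1a2: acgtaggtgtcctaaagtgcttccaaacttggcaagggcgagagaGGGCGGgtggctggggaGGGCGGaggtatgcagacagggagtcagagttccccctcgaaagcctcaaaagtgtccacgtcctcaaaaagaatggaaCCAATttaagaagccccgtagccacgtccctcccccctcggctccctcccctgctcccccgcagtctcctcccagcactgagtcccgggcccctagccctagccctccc
Col6a1: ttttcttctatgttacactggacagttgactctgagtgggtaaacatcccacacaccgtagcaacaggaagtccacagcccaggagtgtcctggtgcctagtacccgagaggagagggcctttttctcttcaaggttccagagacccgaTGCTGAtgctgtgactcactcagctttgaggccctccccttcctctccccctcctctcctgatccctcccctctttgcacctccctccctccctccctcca
Col15a1: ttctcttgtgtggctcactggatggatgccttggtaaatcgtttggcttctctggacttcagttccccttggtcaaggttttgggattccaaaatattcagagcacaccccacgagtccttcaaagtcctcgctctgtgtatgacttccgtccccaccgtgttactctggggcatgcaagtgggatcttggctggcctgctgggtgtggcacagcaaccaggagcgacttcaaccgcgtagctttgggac
Col27a1: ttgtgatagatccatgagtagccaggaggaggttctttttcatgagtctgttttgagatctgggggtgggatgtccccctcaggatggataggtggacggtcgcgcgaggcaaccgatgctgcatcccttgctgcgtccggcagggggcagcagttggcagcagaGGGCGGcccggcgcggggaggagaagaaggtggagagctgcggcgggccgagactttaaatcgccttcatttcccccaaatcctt
These lie at chr6:4505368-4505617 on the plus strand for Col1a2, chr10:76726045-76726294 on the minus strand for Col6a1, chr4:47207762-47208011 on the plus strand for Col15a1 and chr4:63215162-63215411 on the plus strand for Col27a1. The RefSeq starts differ from the gene bounds listed with the levels. By those bounds Col1a2 starts at chr6:4504814 and Col27a1 at chr4:63214004, so both windows lie inside the gene. The Col6a1 window overlaps its gene, which ends at chr10:76726168. Col1a2 held 1 CCAAT and 2 GC boxes, Col27a1 held 1 GC box, Col6a1 held 1 small MAF core, and Col15a1 held none of the 3. Promoters were given for 33 of the 42 genes, with 36 in all, and not for Col1a1. The GC box was found in 21 of the 36 (58.3%), where 32.7% of 32851 promoters held it, CCAAT in 13 (36.1%), where 33.8% did, and TGCTGA in 6 (16.7%), where 16.1% did. Those 6 were Col19a1, Col3a1, Col5a1, Col5a3, Col6a1 and Col6a5, and among them the Mafg LNA log2 ratios were 0.42 for Col5a1, -0.38 for Col5a3 and 0.19 for Col6a1, the others being below the filter. Col1a2 and Col15a1, the genes higher with Mafg LNA, held no TGCTGA in this window. Bases outside the window were not searched, and a link between this motif and the ratios was not tested.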

How the data were processed

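Total RNA of 24 mouse livers in 6 groups of 4 was sequenced as rRNA-depleted, strand-specific libraries. Of these, 16 livers in 4 groups were used, and the 8 livers given Mafg LNA under NCD or LincIRS2 LNA under HFD were not. Per the submitters' processing notes and the study's methods, the authors' pipeline ran flexbar, Bowtie2 2.2.9 against rRNA, STAR 2.6.0c against the mm10 genome, and the Cufflinks 2.2.1 suite. The 3 deposited tables hold FPKM values that the authors computed with Cuffdiff, 1 pooled value per group and row. Columns of fold changes, test statistics, p-values, q-values and calls are the authors' own comparisons and were not used.

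Rows were joined by transcript number. Ratios used a pseudocount of 0.1 FPKM, a filter on a mean of at least 0.1 FPKM and a fold of 1.5. A large step back of row positions within a chromosome was read as the change of strand. With no values per liver and no counts, no test, interval or detection floor was computed. Collagen genes named are those with a mean of at least 0.5 FPKM, those past the fold in at least 1 comparison and chains of types I, III, IV, V and VI, with up to 4 genes past the fold per list and comparison. Other names complete a comparison and were chosen after their values were seen. Members and lists were chosen with earlier results of these data known, and the exon analysis, the LNA matches and the strand settings after seeing the data. Pseudocounts, filters, summed rows, centring and the fold were varied. A gene of the signalling list is not reported here and was left out of its counts.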

Additional observations from a re-analysis of the deposited data

Results flagged for a closer look

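A signal above the control group appeared in 2 rows of collagen genes that the comparisons did not use, among 6 such further rows with a mean of at least 0.1 FPKM. The own-strand row of Col14a1 was at 1.37 FPKM in Scr LNA HFD and 0.518 FPKM in Scr LNA NCD, a log2 ratio of 1.25, while its opposite-strand row had a ratio of 0.32. A further opposite-strand row of Col11a2 was at 0.228 FPKM in Mafg LNA HFD and 0.0361 FPKM in Scr LNA HFD, a log2 ratio of 1.27, while the row that stood for the gene had a ratio of 0.22. Neither difference could be tested with 1 value per group.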

How the results depend on the processing

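With 1 pooled value per group, no liver could be left out. No paired analysis was possible because no value per liver was at hand. Of 17 collagen genes, the count past the fold was 5 for the diet, 3 for Mafg LNA and 4 for LincIRS2 LNA. A pseudocount of 0.01 FPKM gave 8 with HFD, where 8.83% of all genes were higher and 9.59% lower. It gave 5 with Mafg LNA, where 13.2% and 10.2% were. A pseudocount of 0.5 FPKM gave 1 with LincIRS2 LNA, where 1.63% and 1.95% were. Without the filter (37 genes), 8 were past the fold with HFD and 7 with LincIRS2 LNA. Of 15567 genes then covered, 5.32% were higher and 5.52% lower with HFD, and 3.76% and 5.04% with LincIRS2 LNA. The median log2 ratio of the 37 genes was 0 for Mafg LNA and 0.012 for LincIRS2 LNA. With a filter at 0.5 FPKM (10 genes), 3 were past the fold with HFD and 0 with LincIRS2 LNA. Among all genes past that filter 5.51% were higher and 4.43% lower with HFD, and 2.64% and 3.52% with LincIRS2 LNA. At 2-fold, 3 were past it with HFD, where 2.69% of all genes were higher and 2.62% lower. With LincIRS2 LNA 2 were past it, where 1.76% and 1.94% were. Restricted to own-strand rows (7 genes), a setting chosen after seeing the data, 2 were past the fold with HFD and 1 with Mafg LNA. Among all genes with such rows 10.2% were higher and 11.4% lower with HFD, and 11.2% and 12.6% with Mafg LNA. The median of the 7 genes with Mafg LNA was -0.42, against 0.16 with the highest row of either strand. Filtering on the 3 groups other than a gene's highest (14 genes), also chosen after seeing the data, gave 3 with HFD and 2 with LincIRS2 LNA. Among all genes past this filter 6.43% were higher and 6.59% lower with HFD, and 3.91% and 5.69% with LincIRS2 LNA. The causes were not tested. Other medians moved by less than 0.1, and summing all rows of a gene, centring on the median of all genes and using opposite-strand rows alone kept each count within 1.5 times. Unknown depth limits statements on genes below 0.5 FPKM.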
